A study of Arabidopsis thaliana with 9 samples.

Results

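The nuclear photosynthetic light-reaction genes are 52 genes chosen by their identifiers, out of 24640 genes listed in any of the 9 deposited files. They encode light-harvesting proteins of both photosystems, PSBS, photosystem subunits, plastocyanin, the Rieske protein PETC, 2 subunits of the chloroplast ATP synthase, ferredoxins and ferredoxin-NADP reductases. All 52 were listed in all 9 files, passed the filter on low counts and matched the TAIR10.1 annotation, so each of them was tested. By place in the chain they fall into 6 photosystem I antenna genes, 16 photosystem II antenna genes, 12 photosystem I subunit genes, 9 photosystem II subunit genes and 9 genes for electron carriers or the ATP synthase.

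In the light reactions, antenna proteins collect light and pass the energy to photosystem II, which takes electrons from water, and to photosystem I, which hands them to ferredoxin. Plastocyanin carries electrons between the cytochrome b6f complex and photosystem I, and ferredoxin-NADP reductase uses them to make NADPH. The antenna proteins and many small subunits are encoded in the nucleus and imported into the chloroplast, often from several near-identical gene copies, while the reaction centre cores are encoded in the chloroplast.

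Poly(A) RNA of whole Arabidopsis thaliana seedlings was sequenced from 3 libraries each of bbx202122 (a mutant of BBX20, BBX21 and BBX22, which encode B-box proteins), hy5 (a mutant of HY5, which encodes a bZIP transcription factor of light responses) and WT (Col-0). All were 4 days old and had spent the last 3 days in red light of 80 µmol per square metre and second at 22 °C, after cold stratification for 2 days at 4 °C, a white light pulse of 2 h and 22 h of darkness on sucrose-free MS medium. The alleles carried by the mutants and their ecotype were not stated in the labels. The title of the series presents the B-box proteins as partners whose supply limits HY5.

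Library totals were 21.6 to 22.8 in units of 1e6 expected counts. Of the mutated genes, BBX22 was at 2.42 to 2.96 CPM (counts scaled to library sizes of 1e6 after TMM scaling) in bbx202122, against 28.5 to 29.3 CPM in WT. BBX21 was at 24.9 to 27.0 CPM in bbx202122, against 90.8 to 108 CPM in WT. BBX20, at 3.82 to 4.41 CPM in bbx202122 and 4.31 to 4.99 CPM in WT, overlapped and so checks no label. HY5 was at 6.50 to 9.10 CPM in hy5, against 15.5 to 18.4 CPM in WT. HY5 was also lower in bbx202122, at 5.93 to 6.84 CPM. In hy5, BBX20 was at 1.91 to 2.44 CPM, BBX21 at 135 to 143 CPM and BBX22 at 29.0 to 31.1 CPM. The 5 green tissue markers (RBCS1A, RCA, CA1, GAPA and GAPB) were abundant in every library, with summed levels of 22200 to 25600 CPM in bbx202122, 28000 to 29000 CPM in hy5 and 28700 to 33300 CPM in WT.

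The sequences that frame the largest changes below are the stretches just before 4 antenna genes. These genes are 2 that fell most in both mutants (LHCB1.1 and LHCB2.3) and a paralogue of each (LHCB1.3 and LHCB2.1). In aligned coding sequence, gaps counted, LHCB1.3 was 96.1% identical to LHCB1.1. By the same measure LHCB2.3 was 64.0% identical to LHCB2.1 and 75.4% to LHCB2.2. Their longest annotated coding sequences differ in length (897 bases in LHCB2.3, 954 in LHCB2.1 and 798 in LHCB2.2), which lowers these values. Each stretch is 300 bases of the RefSeq genome TAIR10.1 that end at the base before the annotated transcript start, written 5′ to 3′ on the gene's strand. Capitals mark the motifs searched: the G-box CACGTG, a core that HY5 and other bZIP and bHLH factors bind, the I-box GATAAG of light-regulated promoters, the site AAAAATCT or AACAATCT bound by the clock factor CCA1, and the evening element AAAATATCT. LHCB1.1 holds AAAAATCT 78 bases before its start, LHCB2.1 an I-box at 221 bases and LHCB2.3 a G-box at 88 bases, and LHCB1.3 holds none of these motifs in its window.
LHCB1.1 (chr1:10475970-10476269, minus strand): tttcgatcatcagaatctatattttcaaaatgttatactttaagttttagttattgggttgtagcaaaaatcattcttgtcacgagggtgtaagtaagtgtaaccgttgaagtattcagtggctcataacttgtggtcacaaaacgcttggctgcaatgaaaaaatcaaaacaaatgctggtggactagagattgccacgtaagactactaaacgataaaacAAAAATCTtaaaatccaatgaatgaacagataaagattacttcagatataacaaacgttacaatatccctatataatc
LHCB1.3 (chr1:10477585-10477884, plus strand): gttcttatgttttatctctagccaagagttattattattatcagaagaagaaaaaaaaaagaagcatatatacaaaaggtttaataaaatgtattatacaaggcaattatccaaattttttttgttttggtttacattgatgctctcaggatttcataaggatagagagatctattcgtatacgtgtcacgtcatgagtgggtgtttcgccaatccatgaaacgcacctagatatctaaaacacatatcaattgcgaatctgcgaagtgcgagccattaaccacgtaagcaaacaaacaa
LHCB2.1 (chr2:1824481-1824780, minus strand): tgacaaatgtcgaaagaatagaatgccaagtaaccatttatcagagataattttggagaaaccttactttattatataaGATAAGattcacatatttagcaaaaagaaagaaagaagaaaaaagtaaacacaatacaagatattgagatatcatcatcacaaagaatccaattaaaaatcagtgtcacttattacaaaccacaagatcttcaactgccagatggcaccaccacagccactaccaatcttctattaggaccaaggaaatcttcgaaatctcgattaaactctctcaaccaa
LHCB2.3 (chr3:10255606-10255905, plus strand): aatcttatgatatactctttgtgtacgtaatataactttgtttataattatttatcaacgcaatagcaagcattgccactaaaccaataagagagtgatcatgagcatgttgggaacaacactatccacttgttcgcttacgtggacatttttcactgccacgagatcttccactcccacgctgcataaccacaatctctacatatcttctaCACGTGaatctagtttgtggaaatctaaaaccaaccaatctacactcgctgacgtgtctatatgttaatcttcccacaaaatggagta

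Searched on both strands in the same 300-base windows, a G-box stood before 11 of the 52 members (21.2%) and before 7.09% of the 27443 annotated genes. The I-box stood before 12 members (23.1%, against 14.5% of all genes), AAAAATCT before 5 (9.62%, against 7.94%), AACAATCT before 1 (1.92%, against 2.23%) and the evening element before 2 (3.85%, against 2.79%). The 11 genes with a G-box include the antenna genes LHCA4, LHCB2.3, LHCB4.1, LHCB6 and LHCB7, the photosystem I subunit genes PSAE2 and PSAH2, PSBQ1 and PSBQ2 of the oxygen-evolving complex, PETC and ATPD. The motif AAAAATCT stood before LHCA4, LHCB1.1, LHCB1.4, PSAN and PSAO. These counts describe letters in the windows and say nothing of binding.

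Most members were among the most abundant transcripts of the seedlings. On the deposited FPKM scale (fragments scaled to transcript length and library size), which allows levels of different genes to be compared, 48 of 52 had a mean over 100 FPKM and 28 ranked among the 50 most abundant of all genes. LHCB1.3 (AT1G29930; TAIR10.1 chromosome 1, 10477885 to 10479114), a gene for the major trimeric antenna protein of photosystem II, was the most abundant photosystem II antenna transcript and ranked 2 of all genes. It had 11467, 10407 and 11344 FPKM in bbx202122, 12127, 12177 and 12028 FPKM in hy5, and 10058, 9498 and 10239 FPKM in WT. At the other end LHCB4.3 (AT2G40100; chromosome 2, 16745628 to 16747424), an isoform gene of the minor antenna protein CP29, had 6.31, 8.32 and 5.64 FPKM in bbx202122, 8.09, 7.63 and 7.38 FPKM in hy5, and 7.81, 10.34 and 7.20 FPKM in WT. The hy5 libraries lay above the WT libraries for LHCB1.3 and inside their range for LHCB4.3.

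Of the photosystem I antenna genes LHCA1 (AT3G54890; chromosome 3, 20339504 to 20341176) was the most abundant, with 2288, 2202 and 2212 FPKM in bbx202122, 2122, 2012 and 2129 FPKM in hy5, and 2237, 2325 and 2534 FPKM in WT. LHCA6 (AT1G19150; chromosome 1, 6612630 to 6613972), whose protein takes part in linking photosystem I to the NDH complex, was the least abundant, with 81.8, 82.9 and 83.6 FPKM in bbx202122, 80.4, 78.4 and 85.4 FPKM in hy5, and 88.8, 97.7 and 86.8 FPKM in WT. LHCA5, its partner in that link, was of the same order. For LHCA6 all mutant libraries lay below the lowest WT library in FPKM, whereas in CPM hy5 and WT overlapped, and neither mutant was called against WT.

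Among photosystem I subunits PSAD1 (AT4G02770; chromosome 4, 1229031 to 1230164), which encodes a ferredoxin-docking subunit, led with 1849, 2103 and 1786 FPKM in bbx202122, 1920, 1986 and 1914 FPKM in hy5, and 2109, 2088 and 2475 FPKM in WT. PSAE2 (AT2G20260; chromosome 2, 8736734 to 8737767), also a stromal subunit gene, was lowest with 561.6, 544.6 and 523.3 FPKM in bbx202122, 504.5, 452.6 and 532.2 FPKM in hy5, and 461.0, 531.4 and 476.4 FPKM in WT. For PSAD1 all hy5 libraries lay below WT while bbx202122 overlapped with both, and for PSAE2 all 3 genotypes overlapped. Among photosystem II subunits PSBR (AT1G79040; chromosome 1, 29735952 to 29737009), near the oxygen-evolving complex, was highest with 2766, 3084 and 3029 FPKM in bbx202122, 3057, 2858 and 2824 FPKM in hy5, and 3381, 3197 and 3185 FPKM in WT. PSBO2 was the least abundant of that class and PETE1 of the carriers, and both are given with their changes below. FD2 (AT1G60950; chromosome 1, 22444307 to 22445291), the main leaf ferredoxin gene, was the most abundant carrier gene, with 1815, 1826 and 1475 FPKM in bbx202122, 1891, 1902 and 1890 FPKM in hy5, and 1807, 2104 and 2076 FPKM in WT.

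**Figure D1:**
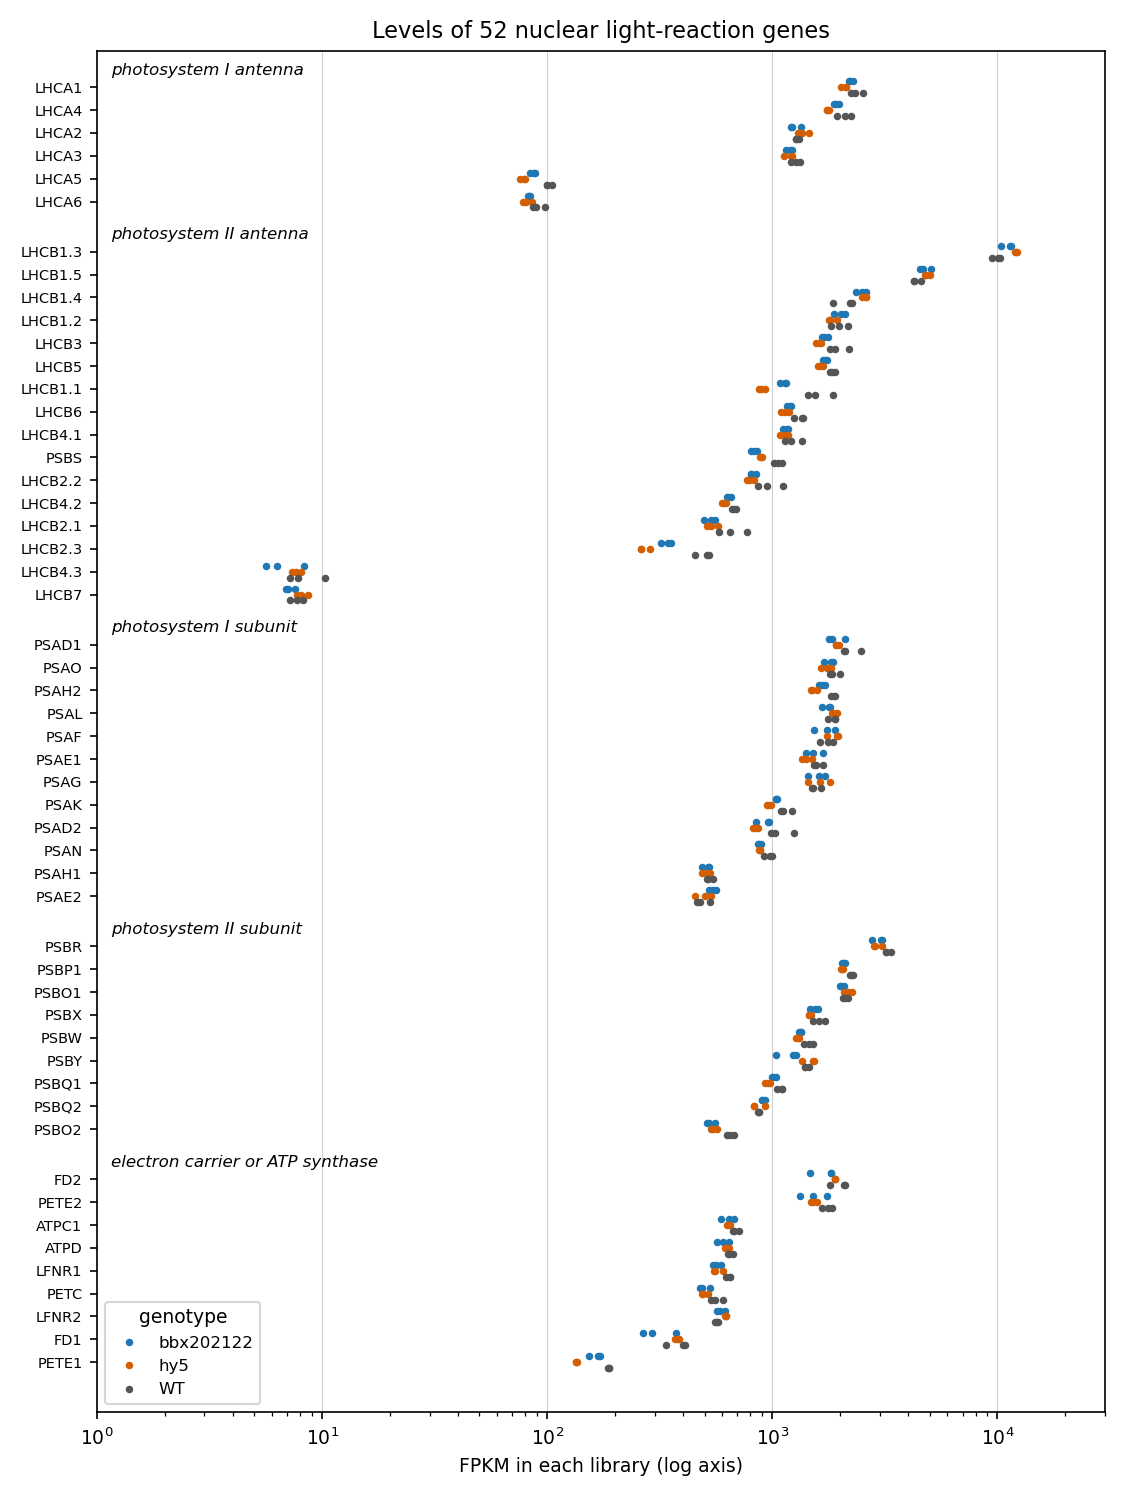
Deposited FPKM of the 52 genes in each library, by class and sorted by mean level within a class (log axis); each point is 1 library of bbx202122 (blue), hy5 (orange) or WT (grey). The genotypes lie close together next to the differences between genes: LHCB1.3 ranked 2 of all genes, whereas LHCB4.3 and LHCB7 are the lowest of the 52.

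Summed over the 52 genes, 8.10, 8.19 and 7.89% of TMM-scaled counts came from them in bbx202122, 8.66, 8.42 and 8.56% in hy5, and 8.17, 8.38 and 8.96% in WT. The libraries of the 3 genotypes overlapped for this sum, except that all of bbx202122 lay below all of hy5. That pattern depended on the scaling. Of unscaled counts the 52 genes made up 8.29, 8.19 and 8.16% in bbx202122, 8.37, 8.19 and 8.36% in hy5, and 8.34, 8.47 and 8.91% in WT. Without scaling, bbx202122 overlapped with hy5 and lay below all of WT. Chloroplast-encoded transcripts, which are not among the 52, made up 0.399 to 0.493% of unscaled counts in bbx202122, 0.191 to 0.326% in hy5 and 0.210 to 0.238% in WT. A fit without organelle-encoded genes gave the same counts of called members in all 3 comparisons (11, 18 and 6).

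In bbx202122 against WT, 11 of the 52 genes fell and 0 rose by edgeR's quasi-likelihood test (adjusted p under 0.05, the threshold for a call), at most by 0.56 on the log2 scale. A share of 21.2% of the members was called, against 16.9% of all 20751 genes tested. By direction, 21.2% of members were lower against 8.27% of all genes, and 0 members were higher against 8.62%. The median log2 fold change of the members was -0.13, with 45 of 52 below 0, and the median of all genes was 0.007. The called genes were 1 of 6 photosystem I antenna genes, 5 of 16 photosystem II antenna genes, 1 of 12 photosystem I subunits, 2 of 9 photosystem II subunits and 2 of 9 carrier or ATP synthase genes. In whole seedlings, fewer cells of a type and less RNA per cell cannot be told apart.

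The green tissue markers were also lower in bbx202122. Of the 5, 4 fell in bbx202122 against WT (RCA by 0.44, GAPB by 0.30 and CA1 by 0.37 on the log2 scale, and RBCS1A by 0.33), and their summed level did not overlap between the genotypes (22200 to 25600 CPM in bbx202122, 28700 to 33300 CPM in WT). In hy5 against WT 1 of the 5 fell, RCA, by 0.19, and in bbx202122 against hy5 4 of the 5 were lower. Of all genes, 8.27% were called lower in bbx202122 against WT, 19.8% in hy5 against WT and 10.9% in bbx202122 against hy5. The 1 of 5 in hy5 was thus close to the share of all genes. All 6 root hair and root markers fell in both mutants, against 8.27% of all genes in bbx202122 and 19.8% in hy5. Their summed levels were 129 to 189 CPM in bbx202122, 116 to 156 CPM in hy5 and 289 to 354 CPM in WT. Seed storage markers summed to 9.95 to 21.0 CPM in bbx202122 and 50.2 to 80.6 CPM in hy5. In WT they summed to 13.6 to 56.0 CPM, with a median of 14.5 CPM. WT replicate 3 stood apart here, with CRU3 at 0.668, 0.459 and 20.5 CPM in WT replicates 1, 2 and 3. Of 6 tested, 1 was lower in bbx202122 (16.7%, against 8.27% of all genes) and 2 were higher in hy5 (33.3%, against 19.6%). Within this list SESA3 was at 0 CPM in 2 of 3 bbx202122 libraries and SESA1 in 1 of 3. The part of tissue composition in the changes of the 52 genes was not tested.

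LHCB2.3 (AT3G27690; chromosome 3, 10255906 to 10257489), a gene of the LHCII antenna protein whose phosphorylation takes part in state transitions, had 389, 412 and 362 CPM in bbx202122, against 519, 588 and 612 CPM in WT. All bbx202122 libraries were below all WT libraries, a log2 fold change of -0.56 ± 0.07 (SE, 3 libraries against 3; adjusted p = 8.2e-05, edgeR). LHCB1.1 (AT1G29920; chromosome 1, 10474656 to 10475969), a gene of the major LHCII protein, had 1480, 1410 and 1450 CPM in bbx202122, against 1840, 2000 and 2450 CPM in WT. The WT libraries spread more widely than those of bbx202122, and the groups did not overlap (-0.54 ± 0.08, adjusted p = 0.00051, edgeR). LHCB2.1 (AT2G05100; chromosome 2, 1822990 to 1824480) had 683, 784 and 723 CPM in bbx202122 and 799, 903 and 1090 CPM in WT. It fell by 0.35 (SE 0.09, adjusted p = 0.018, edgeR), with the highest bbx202122 library just under the lowest WT one, and its call was lost without WT replicate 3 (adjusted p = 0.084) or without bbx202122 replicate 1 (adjusted p = 0.058).

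PSBS (AT1G44575; chromosome 1, 16870221 to 16873427), which encodes the protein that triggers dissipation of excess light energy, had 964, 1050 and 990 CPM in bbx202122, against 1220, 1350 and 1310 CPM in WT. It fell by 0.37 (SE 0.06, adjusted p = 0.00068, edgeR) with no overlap between the genotypes. PSBO2 (AT3G50820; chromosome 3, 18890874 to 18892508), the less abundant of the pair of genes for the manganese-stabilising protein of photosystem II, had 662, 735 and 672 CPM in bbx202122, against 819, 852 and 902 CPM in WT (-0.31 ± 0.06, adjusted p = 0.0029, edgeR). Every bbx202122 library of PSBO2 was below every WT library, and its hy5 libraries had 744, 726 and 771 CPM. PSBY (AT1G67740; chromosome 1, 25394031 to 25395249), for a small photosystem II protein, had 1510, 1500 and 1210 CPM in bbx202122 and 1660, 1690 and 1770 CPM in WT (-0.27 ± 0.08, adjusted p = 0.034, edgeR). Here bbx202122 replicate 3 was the lowest by a wide margin, and the call was lost without it (adjusted p = 0.11) or without any single WT library (adjusted p from 0.06).

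The other genes that fell in bbx202122 were LHCB2.2 (log2 fold change -0.26), LHCA5 (-0.25), PETE1, a plastocyanin gene (-0.21), LFNR1, a ferredoxin-NADP reductase gene (-0.19), and PSAH2, for a photosystem I subunit next to the LHCII docking site (-0.18). The largest positive value was that of LHCB1.4, 0.22 ± 0.07 (adjusted p = 0.056, edgeR), which was not called. It was called higher with library size as the only scaling, with no filter on low counts and with DESeq2, so that 1 gene rose in those 3 settings. The remaining genes without a call include all of LHCB3 to LHCB7 and LHCB1.3, at -0.38 to 0.14, and FD1 at -0.32 ± 0.11 (adjusted p = 0.059, edgeR). LHCA5, LHCB1.1, LHCB2.3, PSBS and PSBO2 were called in each of the 9 fits that left out 1 library, and LHCB2.1, LHCB2.2, PSBY, PETE1, PSAH2 and LFNR1 lost the call in 2 to 7 of them. The count of called genes was 5 without WT replicate 3 and 6 without bbx202122 replicate 3.

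In hy5 against WT, 4 of the 52 genes rose and 14 fell. The called share, 34.6%, was below the 39.5% of all genes tested. By direction 7.69% of members were higher against 19.6% of all genes, and 26.9% were lower against 19.8%. The median log2 fold change was -0.09, with 36 of 52 below 0, against 0.003 for all genes. Calls were most frequent among the photosystem II antenna genes, where 3 rose and 7 fell of 16, against 2 lower of 6 photosystem I antenna genes, 3 lower of 12 photosystem I subunits, 1 lower of 9 photosystem II subunits, and 1 higher and 1 lower of 9 carrier or ATP synthase genes. With library size as the only scaling the split was 3 higher and 25 lower, with a median of -0.14, and LHCB1.5 lost its call. The share of all genes called with that scaling was not computed, so this split has no background beside it.

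Within the LHCB1 family, changes in opposite directions stood side by side in the genome. LHCB1.1 had 1200, 1180 and 1240 CPM in hy5, against 1840, 2000 and 2450 CPM in WT, and fell by 0.80 (SE 0.09, adjusted p = 3.5e-06, edgeR). Its divergently transcribed neighbour LHCB1.3 had 15400, 15300 and 15100 CPM in hy5, against 12100, 11500 and 12600 CPM in WT, and rose by 0.34 (SE 0.07, adjusted p = 0.00085, edgeR). For both genes the hy5 libraries were tightly grouped and did not overlap those of WT. LHCB1.2, on the other side of LHCB1.1 on chromosome 1, was at -0.06 ± 0.07 (adjusted p = 0.56, edgeR).

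The family's pair on chromosome 2 rose in hy5. LHCB1.4 (AT2G34430; chromosome 2, 14524607 to 14525918) had 3400, 3500 and 3470 CPM in hy5, against 2900, 2410 and 2910 CPM in WT (0.34 ± 0.07, adjusted p = 0.0022, edgeR). All hy5 libraries lay above all WT libraries, of which replicate 2 was the lowest. LHCB1.5, transcribed away from LHCB1.4, rose by 0.21 (SE 0.07, adjusted p = 0.021, edgeR), a call that was lost without WT replicate 1 or 2 or hy5 replicate 1 or 3 (adjusted p 0.052 to 0.078). Summed over its 5 genes LHCB1 had 27400, 27300 and 27500 CPM in hy5, 25800, 24200 and 25500 CPM in bbx202122, and 23300, 22700 and 25400 CPM in WT.

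LHCB2.3 had the largest fall of the 52 genes in hy5, with 315, 313 and 342 CPM in hy5, against 519, 588 and 612 CPM in WT (-0.83 ± 0.07, adjusted p = 4.2e-07, edgeR). That is a fall of 43.6%, and the lowest WT library stood far above the highest hy5 library. LHCB2.1 and LHCB2.2 fell by 0.26 and 0.23, and here hy5 and WT libraries overlapped. LHCB2.1 had 773, 740 and 823 CPM in hy5 and 799, 903 and 1090 CPM in WT. LHCB2.2 (AT2G05070; chromosome 2, 1799234 to 1800472) had 925, 904 and 961 CPM in hy5, 893, 955 and 882 CPM in bbx202122, and 955, 1060 and 1270 CPM in WT. Both calls in hy5 were lost without WT replicate 3, with an adjusted p of 0.22 for LHCB2.1 and 0.21 for LHCB2.2.

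PETE1 (AT1G76100; chromosome 1, 28553883 to 28554930), the minor of the pair of plastocyanin genes, had 113, 113 and 111 CPM in hy5, 133, 139 and 120 CPM in bbx202122, and 149, 151 and 152 CPM in WT. The 3 genotypes did not overlap in any library, and in hy5 it fell by 0.42 (SE 0.06, adjusted p = 4.3e-05, edgeR). LHCA5 (AT1G45474; chromosome 1, 17179250 to 17180806) had 76.4, 75.5 and 72.0 CPM in hy5, 80.5, 78.4 and 78.4 CPM in bbx202122, and 91.1, 97.1 and 94.0 CPM in WT. It fell by 0.33 in hy5 (SE 0.05, adjusted p = 0.00012, edgeR) with all libraries below those of WT. LFNR2, a ferredoxin-NADP reductase gene, rose by 0.19 (SE 0.06, adjusted p = 0.013, edgeR).

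The other genes that fell in hy5 were PSAD2 (-0.31), PSAH2 (-0.24), LHCB3 (-0.24), PSAK (-0.20), PSBS (-0.20), PSBO2 (-0.20), LHCA4 (-0.19) and LHCB6, the gene of the minor antenna protein CP24 (-0.16). LHCB1.1, LHCB1.3, LHCB1.4, LHCB2.3, LHCA5, PSAH2, PETE1 and LFNR2 were called in each of the 9 fits that left out 1 library, and the 10 other calls were lost in 2 to 5 of them. The count of called genes was 11 without WT replicate 3 and 11 without hy5 replicate 2, and 12 without hy5 replicate 1 or replicate 3.

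**Figure D2:**
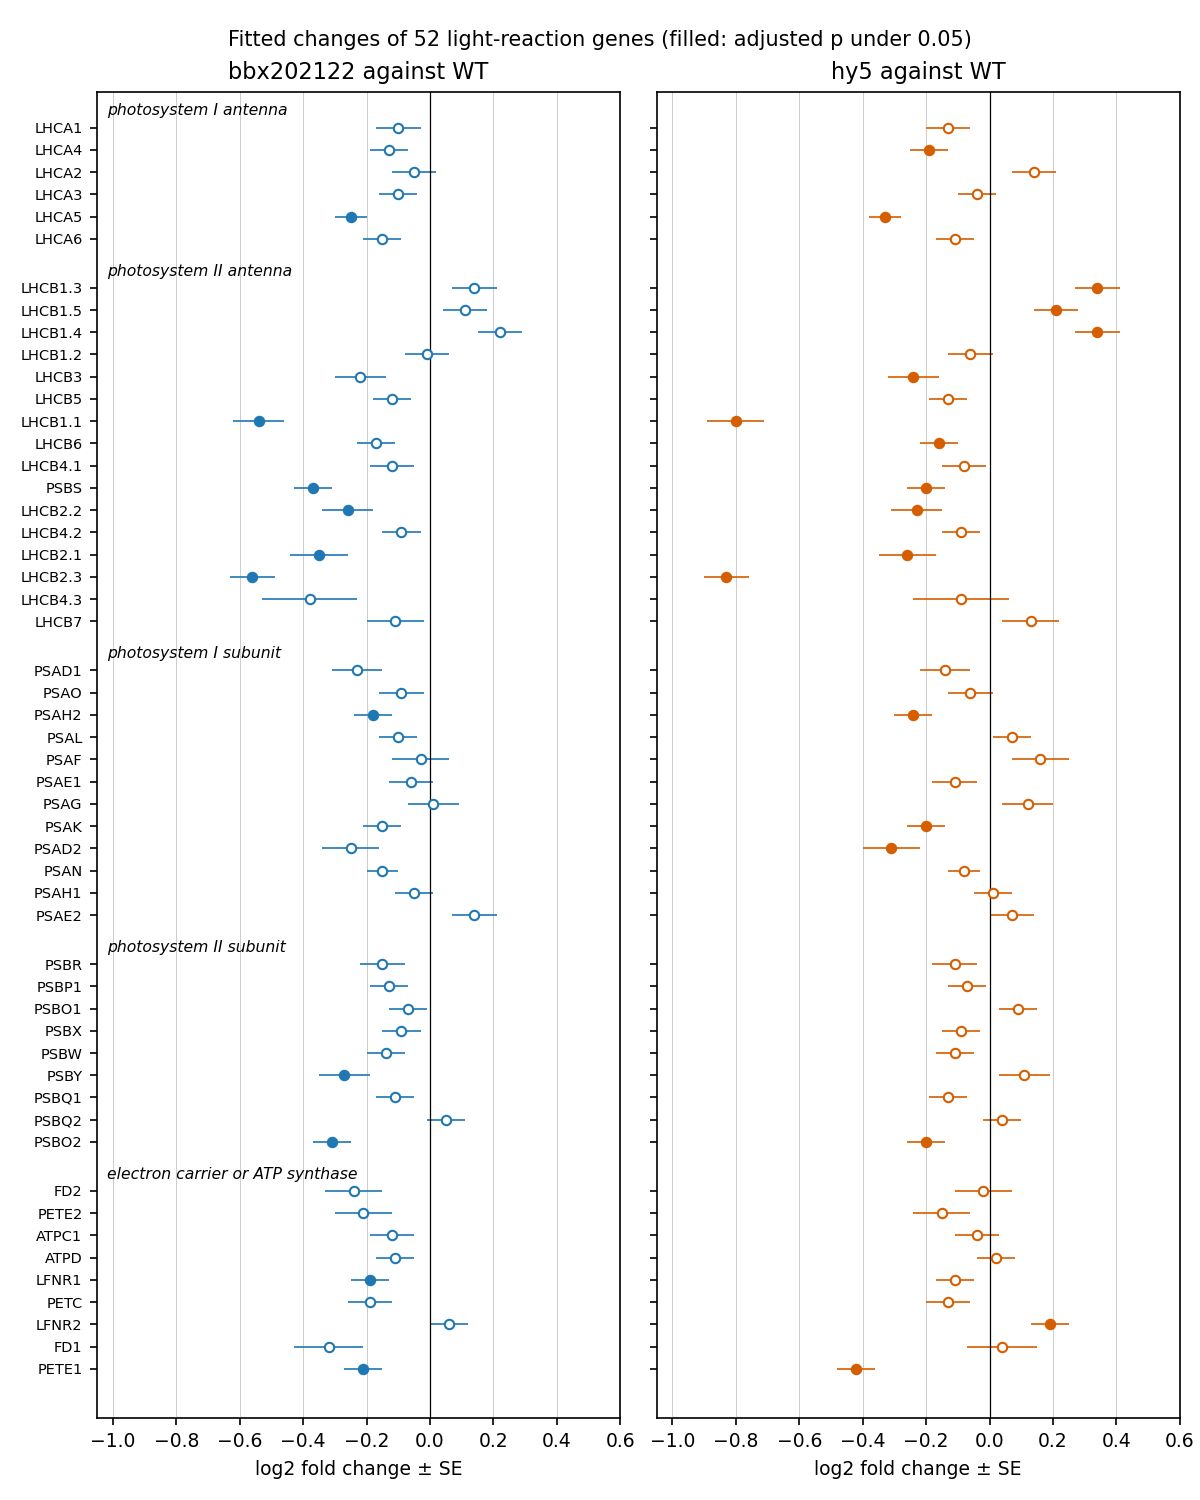
Fitted log2 fold change ± SE of the 52 genes in bbx202122 against WT (left) and hy5 against WT (right), from 3 libraries against 3; filled points passed the threshold. LHCB1.1 and LHCB2.3 stand lowest in both panels, at -0.54 and -0.56 in bbx202122 and at -0.80 and -0.83 in hy5, and the filled points above 0, LHCB1.3, LHCB1.4, LHCB1.5 and LFNR2, are in the hy5 panel.

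The 2 comparisons above share the WT libraries, so the direct comparison of the mutants was used to ask where they differ. In bbx202122 against hy5, 3 genes were higher and 3 lower (11.5% of members called, against 23.0% of all genes; 12.1% of all genes were higher and 10.9% lower). LHCB1.1 (0.26 ± 0.08, adjusted p = 0.038, edgeR) and LHCB2.3 (0.26 ± 0.07, adjusted p = 0.016, edgeR) were higher in bbx202122 than in hy5, with no overlap between the libraries given above. PETE1 was higher too (0.22 ± 0.06, adjusted p = 0.015, edgeR), and LHCB1.3, with 13700, 12700 and 13400 CPM in bbx202122 and 15400, 15300 and 15100 CPM in hy5, was lower (-0.20 ± 0.07, adjusted p = 0.044, edgeR). With library size as the only scaling 4 genes were higher and 2 lower, with a median of 0.02 in place of -0.05, and without bbx202122 replicate 2 there were 0 higher and 9 lower.

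PSBY differed most, with 1510, 1500 and 1210 CPM in bbx202122 and 1930, 1680 and 1890 CPM in hy5 (-0.38 ± 0.08, adjusted p = 0.004, edgeR). Every bbx202122 library was below every hy5 library, and the call held in each of the 9 fits that left out 1 library. FD1 (AT1G10960; chromosome 1, 3664187 to 3665040), the minor leaf ferredoxin gene, had 238, 312 and 216 CPM in bbx202122 and 329, 318 and 331 CPM in hy5, with WT at 277, 339 and 338 CPM. The spread within bbx202122 was wide and its highest library came close to the lowest of hy5 (-0.35 ± 0.11, adjusted p = 0.03, edgeR). Calls were lost when single libraries of either mutant were left out for FD1 (5 of 9 fits, adjusted p 0.061 to 0.11), LHCB1.1 (6 of 9, 0.055 to 0.12), LHCB2.3 (3 of 9, 0.06 to 0.071) and PETE1 (2 of 9, 0.053 to 0.07), and for LHCB1.3 also without WT replicate 1 or 3 (7 of 9, 0.054 to 0.12). The count of called genes was 3 without bbx202122 replicate 3, 4 without bbx202122 replicate 1, and 2 without hy5 replicate 1, 2 or 3.

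**Figure D3:**
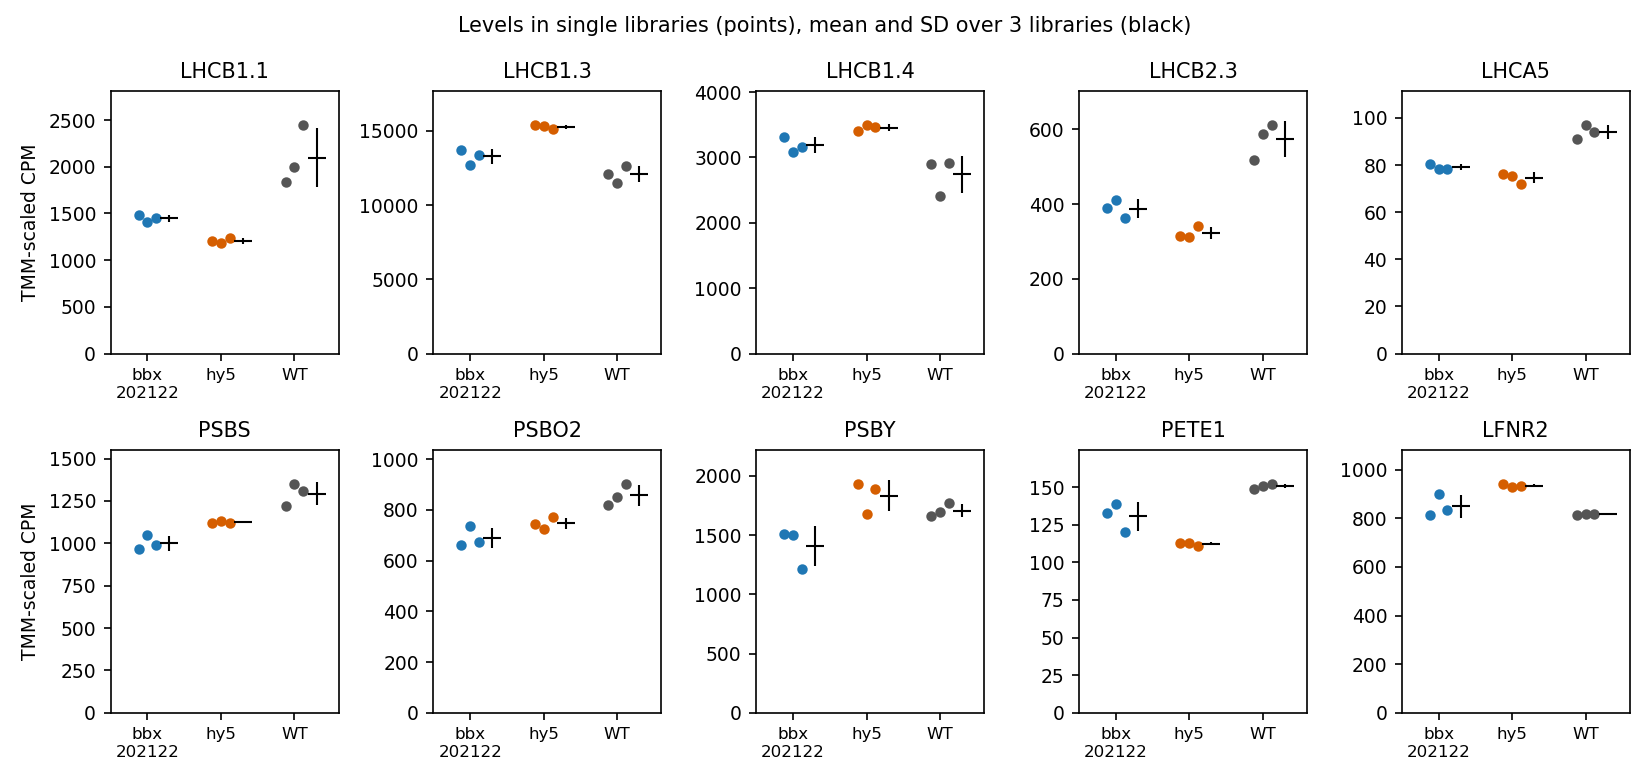
TMM-scaled CPM in single libraries of 10 genes named in the text (points), with mean and SD over 3 libraries (black), for bbx202122, hy5 and WT; all vertical axes start at 0. LHCB1.1, LHCB2.3, LHCA5 and PETE1 are lowest in hy5, with bbx202122 between hy5 and WT, LHCB1.3 and LHCB1.4 are highest in hy5, and PSBY is lowest in bbx202122.

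The balance of paralogues was compared within each library, where scaling cancels. The 5 LHCB1 coding sequences were 86.8 to 96.4% identical, LHCB1.1 and LHCB1.3 96.1%. PSAH1 and PSAH2 were 87.0% identical, within that range, PSAD1 and PSAD2 86.3% and PSBO1 and PSBO2 83.6%. Some pairs were further apart, with 59.1% for LHCA2 and LHCA6, 60.3% for PETE1 and PETE2, 65.4% for LHCB4.1 and LHCB4.3 and 73.5% for LFNR1 and LFNR2. Of the summed FPKM of the LHCB1 family, LHCB1.1 supplied 5.25 ± 0.075% in bbx202122, 4.02 ± 0.092% in hy5 and 8.04 ± 0.80% in WT (SD, n = 3). LHCB1.3 supplied 51.6 ± 0.41% in bbx202122, 54.3 ± 0.81% in hy5 and 49.6 ± 1.0% in WT. The log2 ratio of LHCB1.1 to LHCB1.3, chosen after their values were seen and given without a test, was -3.20 ± 0.03 in bbx202122, -3.66 ± 0.05 in hy5 and -2.53 ± 0.17 in WT. No library of 1 genotype overlapped with another for this ratio.

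**Figure D4:**
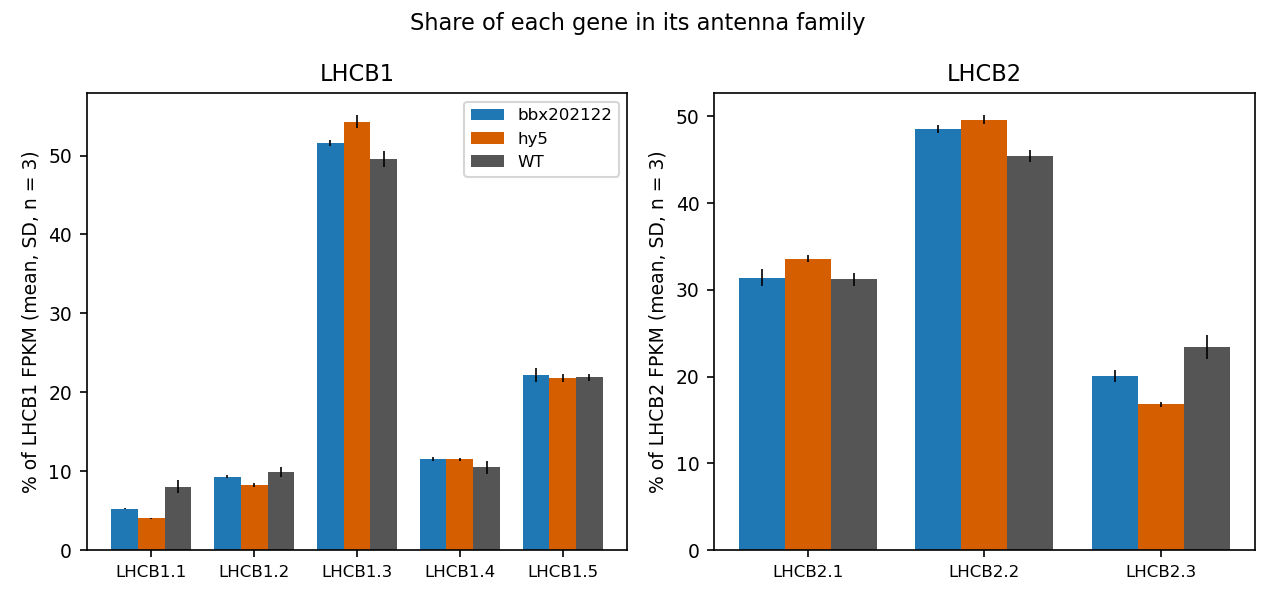
Share of each gene in the summed FPKM of the LHCB1 family (left) and the LHCB2 family (right), as mean and SD over 3 libraries of bbx202122, hy5 and WT. LHCB1.1 (5.25, 4.02 and 8.04%) and LHCB2.3 (20.1, 16.8 and 23.4%) take a smaller share in both mutants than in WT.

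Of 13 paralogue ratios formed from expected counts, 2 differed between the 3 genotypes by an exact permutation test over the 9 libraries (two-sided, 1680 arrangements, Benjamini-Hochberg over the 13 ratios). The log2 ratio of LHCB2.3 to the sum of LHCB2.1 and LHCB2.2 was -2.02, -2.08 and -2.15 in bbx202122, -2.43, -2.39 and -2.38 in hy5, and -1.76, -1.74 and -1.94 in WT. It was lower than in WT by 0.27 in bbx202122 and by 0.59 in hy5, with no overlap between genotypes (exact p = 0.0036, the smallest the test can give; adjusted p = 0.023). PSAH1 and PSAH2 encode the same photosystem I subunit, and their log2 ratio was -0.80, -0.73 and -0.79 in bbx202122, -0.66, -0.63 and -0.70 in hy5, and -0.95, -0.82 and -0.95 in WT. All 3 genotypes were again apart, by 0.13 in bbx202122 and 0.25 in hy5 relative to WT (exact p = 0.0036, adjusted p = 0.023). Between 2 genotypes, 3 libraries against 3 cannot give an exact p below 0.1, and both ratios gave 0.1 in each mutant against WT.

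Of this pair PSAH2 (AT1G52230; chromosome 1, 19454798 to 19455668) was called lower in both mutants (adjusted p = 0.045 in bbx202122 and 0.0039 in hy5, edgeR). In bbx202122 that call was lost in 9 of 16 alternative settings, 7 of the 9 fits that left out 1 library among them (adjusted p up to 0.13), and in hy5 it held in all 16. It had 1150, 1130 and 1060 CPM in bbx202122, 1120, 1040 and 1050 CPM in hy5, and 1270, 1230 and 1290 CPM in WT. Both mutants lay below WT without overlap. PSAH1 (AT3G16140; chromosome 3, 5467987 to 5469594) had 659, 680 and 613 CPM in bbx202122, 708, 673 and 644 CPM in hy5, and 655, 698 and 665 CPM in WT, so the genotypes overlapped. Its log2 fold changes were -0.05 ± 0.06 in bbx202122 and 0.01 ± 0.06 in hy5, neither of them called.

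Another 5 ratios reached an adjusted p of 0.056 to 0.06 by the same exact test and are given as values. Relative to WT, PSBO2 to PSBO1 was at -0.25 in bbx202122 and -0.29 in hy5, and LFNR2 to LFNR1 at 0.25 in bbx202122 and 0.31 in hy5. LHCB1.4 and LHCB1.5 to the other 3 LHCB1 genes was at 0.10 in bbx202122 and 0.08 in hy5, LHCA6 to LHCA2 at -0.10 in bbx202122 and -0.25 in hy5, and PETE1 to PETE2 at 0.01 in bbx202122 and -0.27 in hy5. The ratios within PSBQ, PSAD, PSAE, FD and LHCB4 had adjusted p of 0.075 to 0.86 (exact permutation test). Without bbx202122 replicate 3 the number of ratios past the threshold was 0, without bbx202122 replicate 2 it was 5, and without hy5 replicate 2 it was 1, that of LHCB2.3.

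**Figure D5:**
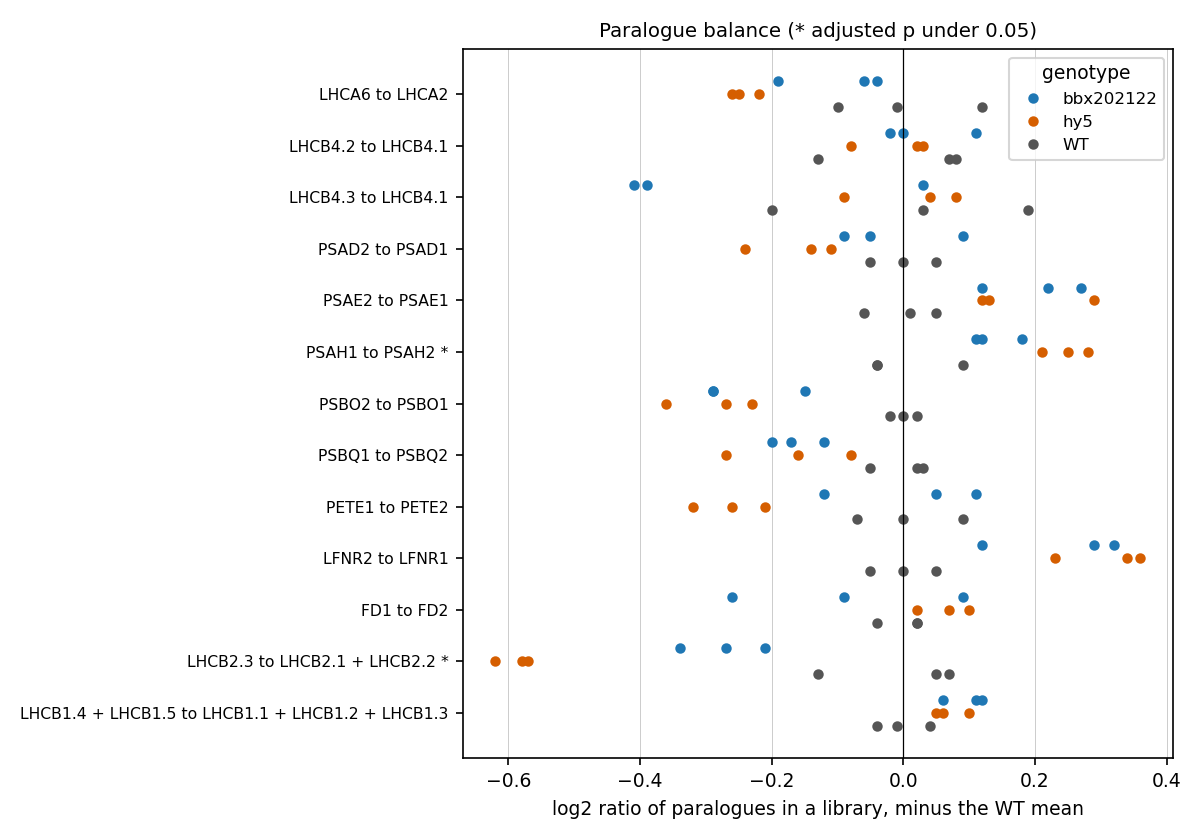
Log2 ratio of paralogues in each library minus the WT mean, for 13 ratios, with bbx202122 above hy5 above WT in each row; a star marks an adjusted p under 0.05 by the exact permutation test. The LHCB2.3 ratio lies lowest in hy5 (-0.59) with bbx202122 between (-0.27), and the PSAH1 to PSAH2 ratio lies above WT in both mutants (0.13 in bbx202122 and 0.25 in hy5).

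Near-identical copies and overlapping genes limit how reads can be assigned. Of the 52 genes 31 shared no run of 50 transcript bases with any other listed gene, and 13 shared over 10% of their runs. LHCB1.1 shared 20.5% with other LHCB1 genes, and LHCB1.3 22.0% with LHCB1.1, LHCB1.2 and the overlapping gene AT1G29940. LHCB2.1 and LHCB2.2 shared 21.9 and 28.2% with each other. LHCB2.3 shared 38.6% with the overlapping AT3G27700, whose level was 29.7 ± 1.2 CPM in bbx202122, 32.4 ± 2.5 CPM in hy5 and 29.4 ± 0.58 CPM in WT (SD, n = 3), 5.1% of that of LHCB2.3 in WT. PSAH2 shared 19.1% with AT1G52240 (0.44% of its level in WT), and PSAH1 49.2% with AT3G16130, which had too few counts to be tested. PSAG shared 58.8% with AT1G55673, which had 120% of its CPM in WT, and FD1 3.6% with AT1G10950. The counts do not show how reads of such stretches were divided.

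Of 15 further genes for subunits, carriers and their regulators, 3 fell in bbx202122 and 0 rose (20% called, against 16.9% of all genes), while 3 rose and 5 fell in hy5 (53.3%, against 39.5%). In both mutants PGRL1A and PGR5, needed for cyclic electron flow, and STN7, the kinase of state transitions that phosphorylates LHCII, fell, by 0.26, 0.21 and 0.24 in bbx202122 and by 0.18, 0.20 and 0.17 in hy5. PGRL1B, the paralogue of PGRL1A, rose in hy5 (0.27 ± 0.07, adjusted p = 0.0068, edgeR) and was at 0.03 ± 0.07 in bbx202122, where it was not called. In hy5 the smallest adjusted p were those of STN8, a kinase of photosystem II proteins (0.27 ± 0.06), CYTC6A, a cytochrome c6-like gene (-0.35 ± 0.09), and FD3, a ferredoxin gene of non-green tissue (-0.38 ± 0.10). In bbx202122 against hy5, 2 were higher and 3 lower (33.3% called, against 23.0% of all genes). ATPG, for an ATP synthase subunit, led with 1090, 1110 and 818 CPM in bbx202122 and 1560, 1480 and 1490 CPM in hy5 (-0.59 ± 0.11).

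Among 13 genes for import and assembly of photosystem proteins, 1 fell in bbx202122 and 4 fell in hy5, and 0 rose in either. In bbx202122 the called share was 7.69%, against 16.9% of all genes called and 8.27% called lower. In hy5 it was 30.8%, against 39.5% of all genes called and 19.8% called lower. HCF173, which acts in translation of the photosystem II core protein D1, had 119, 140 and 128 CPM in bbx202122, 120, 128 and 131 CPM in hy5, and 164, 154 and 168 CPM in WT. It fell by 0.33 in bbx202122 and by 0.36 in hy5 without overlap with WT. CPSRP54 and LTD, both of the pathway that delivers LHC proteins to the thylakoid, fell in hy5 by 0.28 and 0.33. CPSRP43 (-0.15), CPFTSY (0.08) and ALB3 (-0.01), of the same pathway, were not called in hy5. CPSRP54 was 0.19 higher in bbx202122 than in hy5.

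Of 9 genes for regulators of photosynthesis genes, HY5 itself among them, 6 fell in bbx202122 (66.7% called, against 16.9% of all genes), and 6 fell and 1 rose in hy5 (77.8%, against 39.5%). In bbx202122 against hy5, 2 were higher (LHY and CCA1) and 3 lower (GLK1, GNC and HY5), 55.6% called against 23.0% of all genes. LHY, a clock MYB factor and close relative of CCA1, had 65.3, 65.2 and 62.3 CPM in bbx202122, 47.7, 46.4 and 49.9 CPM in hy5, and 145, 145 and 167 CPM in WT. CCA1, first known for binding an LHCB1 promoter, had 45.9, 42.0 and 43.3 CPM in bbx202122, 39.1, 37.6 and 36.2 CPM in hy5, and 88.2, 87.1 and 102 CPM in WT. For both genes the 3 genotypes did not overlap, and hy5 was lowest. HYH, the closest homologue of HY5, had 10.3, 11.2 and 11.8 CPM in bbx202122, 10.5, 10.7 and 9.80 CPM in hy5, and 23.3, 27.2 and 25.8 CPM in WT. GLK2, a direct activator of antenna genes, fell by 0.29 in bbx202122 and by 0.24 in hy5, and GLK1 was called in neither mutant against WT. GNC, a GATA factor of greening, rose in hy5 (0.27 ± 0.07) and was lower in bbx202122 than in hy5 (-0.34 ± 0.07). Against WT, GNC was at -0.07 ± 0.07 in bbx202122 and was not called. Its paralogue CGA1 fell by 0.80 in bbx202122 (adjusted p = 3.6e-05, edgeR). In hy5 CGA1 went the other way from GNC, with a fall of 1.07 (adjusted p = 5.8e-07, edgeR).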

How the data were processed

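The authors' deposited files give, per library and gene, expected counts estimated by RSEM and FPKM values. Per the submitters' processing notes the tools were HISAT, Bowtie2 2.2.5 and RSEM 1.2.12 with the build TAIR10, their order and roles not stated. The deposited expected counts are unscaled. The deposited FPKM values are, by their definition, relative to transcript length and depth, and the smallest listed is 0.01; genes absent from a file were counted as 0. Gene identifiers were matched to TAIR10.1, and coordinates and sequences are those of TAIR10.1 (RefSeq).

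Expected counts were rounded and fitted with edgeR 4.0.16 (R 4.3.3), TMM scaling, filterByExpr by genotype and 1 mean per genotype over all 9 libraries, leaving 20751 genes and 6 residual degrees of freedom. The quasi-likelihood F test was two-sided, with Benjamini-Hochberg adjustment over all genes tested and calls at 0.05. The SE is the size of the log2 fold change over the root of F. In a library, 3 counts equal 0.132 to 0.139 CPM. The procedure was tested on simulated data. Paralogue ratios used a pseudocount of 0.5 counts. Shared runs are words of 50 bases of annotated transcripts. Percent identity is matches over aligned columns, gaps included, of each gene's longest annotated coding sequence.

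The mutated genes are given as ranges over the libraries of a genotype. Values in single libraries are given for the 6 called members with the largest change in each comparison, in the genotypes compared. They are also given for both sides of each paralogue ratio past the threshold, and for the most and least abundant member of each class. Other lists give up to 3 called genes with the smallest adjusted p per comparison. Genes that fall outside this rule and were chosen after their values were seen include RBCS1A, GLK2, CGA1, PGRL1B, CPSRP43, CPFTSY and ALB3. In hy5 they also include GNC, PGRL1A, PGR5 and STN7. The members and lists were chosen with earlier results of these data known. Nothing in the labels says that replicates came from separate cultures, so the p-values reflect only variation among these libraries, which may be technical. Replicates differed by more than sampling noise (chi-square per gene 2.65 to 8.23). DESeq2 1.42.0, other scalings, no filter, fewer samples, a replicate block, each library left out and a fit without organelle-encoded genes (added after seeing the data) were alternatives.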

Additional observations from a re-analysis of the deposited data

Results flagged for a closer look

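The effects of the 2 mutants relative to WT differed for 6 of the 52 genes by a test of the difference itself. The test was edgeR's quasi-likelihood test of bbx202122 against hy5, with Benjamini-Hochberg over 20751 genes. A share of 11.5% of members was called, below the 23.0% of all genes. Of the 6 calls, that of PSBY held in each fit that left out 1 library, and 5 were lost in some of these fits. The log2 difference was 0.26 for LHCB1.1, 0.26 for LHCB2.3 and 0.22 for PETE1, which fell further in hy5 than in bbx202122. It was -0.20 for LHCB1.3, which rose in hy5 and was not called in bbx202122 against WT. It was -0.38 for PSBY, which fell in bbx202122 and was not called in hy5 against WT, and -0.35 for FD1, which was called in neither mutant against WT.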

How the results depend on the processing

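Of the 35 calls of single genes in the 3 comparisons, 14 held under all 16 alternative settings (5 in bbx202122 against WT, 8 in hy5 against WT and 1 in bbx202122 against hy5), and 0 changed sign in any of them. In bbx202122 against WT the count of called genes, 11, became 21 with DESeq2 and 6 with the 2 genotypes alone, and ranged from 5 to 15 when 1 library was left out. In hy5 against WT the count, 18, became 28 with library size as the only scaling, and ranged from 11 to 18. In bbx202122 against hy5 the count, 6, became 11 with DESeq2, and ranged from 2 to 9. Shares of all genes called were not computed for the alternative settings, so shifts of the members and of all genes cannot be told apart. The 2 paralogue ratios past the threshold were the same with deposited FPKM or a pseudocount of 5 counts, and their number ranged from 0 to 5 when 1 library was left out. With the replicate block it was 0 (smallest adjusted p 0.09, exact permutation within replicate numbers, whose smallest p is 0.028). With the replicate block the counts of called genes were 11 (9 of them also called without it), 17 and 5, and the calls of PSAH2 and LFNR1 in bbx202122 against WT, LHCB6 in hy5 against WT and LHCB1.3 in bbx202122 against hy5 were lost. The cause of these shifts in the counts was not tested. Deviations of same-numbered libraries correlated at -0.079 to 0.139 (9 pairs) and those of other pairs at -0.091 to 0.098 (18 pairs). Between bbx202122 and hy5, same-numbered pairs stood at 0.139, 0.072 and 0.037, above all other pairs of these mutants (-0.091 to 0.029). Same-numbered pairs with WT were all negative (-0.079 to -0.023). These correlations do not settle whether replicate numbers pair the libraries. Most log2 changes were small: 41 of 52 in bbx202122 and 44 in hy5 were under 0.25 in size.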
